A study of Mus musculus with 16 samples.

Results

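The genes described here are 34 members of the heterogeneous nuclear ribonucleoprotein (hnRNP) family and its relatives among the RNA-binding proteins, taken by gene symbol from a count table of 46320 genes. They are read for 2 questions, which are whether any of them changed in level when *Hnrnpr*, another member of the family, was deleted, and at what level their transcripts were found in axons. Deletion of *Hnrnpr* left 0 of the 34 past an adjusted p of 0.05 in edgeR in either compartment, where 0.00557% of all genes passed in the somatodendritic compartment and 0.00528% in axons. Between compartments, 11 were higher and 6 lower in +/+ axons, where 30.1% of all genes were higher and 27.4% lower, led by *Hnrnpf* among the increases and by *Ralyl* and *Taf15* among the decreases, whereas 17 did not pass the test. Markers of dividing cells were higher in axons too, and with their sum as a covariate, which few libraries tell apart from the compartment, 1 of the 11 increases, that of *Hnrnpf*, kept its call, in a fit that called 16.8% of all genes higher. *Ralyl* was not called with the covariate in either genotype.

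hnRNPs are abundant proteins that coat nascent transcripts in the nucleus and act in splicing, export, stability and translation of mRNA, and several of them shuttle to the cytoplasm. They bind RNA through RNA recognition motifs, KH domains or arginine- and glycine-rich stretches, and close paralogs often bind similar sequences. In neurons some family members travel with mRNAs into axons and dendrites, and hnRNP R, with its near relative Syncrip, is among those found in motoneuron axons.

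Motoneurons were enriched from lumbar spinal cord of embryonic day 13 mice by panning for the neurotrophin receptor p75 and grown in microfluidic chambers, where axons cross into a compartment separate from cell bodies and dendrites. The groups are +/+ somatodendritic, +/+ axonal, *Hnrnpr*-/- somatodendritic and *Hnrnpr*-/- axonal RNA, with 4 libraries each. The knockout is a CRISPR/Cas9 deletion at the start of *Hnrnpr* carried by all cells of the mouse. All cultures received 5 ng/ml CNTF in both compartments and 20 ng/ml BDNF in the axonal compartment alone, and axonal cDNA was amplified from less RNA with more cycles, so compartment cannot be told apart from these differences.

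Total counts per library ranged from 22024923 to 34864151. *Hnrnpr* had 3922 to 15608 counts in each +/+ library and 13 to 38 in each *Hnrnpr*-/- library, as the labels say. Of 8 motoneuron markers, *Mnx1* had at most 3 counts in every library, and the summed level of the list was 17.0 to 33.8 CPM in somatodendritic and 2.85 to 17.4 CPM in axonal libraries. The common dispersion in edgeR was 0.0499 over the somatodendritic and 0.275 over the axonal libraries, so differences between axonal groups were measured less precisely. Because the material is bulk RNA, fewer cells of a type and less RNA per cell cannot be told apart. Levels are given as CPM, the counts scaled to a common library size, after scaling of libraries by TMM factors. Log2 fold changes (log2FC) come from edgeR's quasi-likelihood test, with p values adjusted after Benjamini and Hochberg for every gene in the fit. The test gives no standard error (SE), so the SE was derived from the log2FC and the F statistic, and the intervals rest on it. All 34 genes passed the filter on low counts in every comparison. The study calls the libraries of a group biological replicates and says of its experiments in general that compared conditions came from 1 batch of cells. As the sources used here do not tie a library to a litter, p values measure the spread between these libraries.

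Per kilobase of exon, *Hnrnpk*, which encodes a KH-domain protein that binds C-rich RNA, was the most abundant of the 34 in each of the 4 groups. It had 269 CPM per kilobase in +/+ somatodendritic libraries, above 99.5% of genes tested, and 379 in +/+ axons. *Hnrnpa2b1*, whose protein binds RNA trafficking elements, and *Pcbp1*, a poly(C)-binding protein, followed in the +/+ somatodendritic libraries with 99.0 and 98.8 CPM per kilobase, less than the spread between libraries apart. In +/+ axons the next after *Hnrnpk* were *Hnrnpa2b1* with 201 ± 97.4 and *Hnrnpab* with 184 ± 74.0 CPM per kilobase (SD, n = 4), again within each other's spread. At the low end were *Taf15*, *Msi1* and *Msi2*, with 1.17, 0.574 and 0.466 CPM per kilobase in +/+ somatodendritic libraries. Lengths join all annotated exons of a gene, with 3463 bases for *Hnrnpk*, 5302 for *Hnrnpa2b1* and 18926 for *Msi2*. Their canonical transcripts have 5030, 2935 and 2064 bases, so ranks per kilobase depend on the length used. Together the 34 genes took 0.543 ± 0.0403% of all counts in +/+ somatodendritic and 0.810 ± 0.188% in +/+ axonal libraries, and 0.561 ± 0.0661% and 0.785 ± 0.197% in the corresponding *Hnrnpr*-/- libraries.

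**Figure D1:**
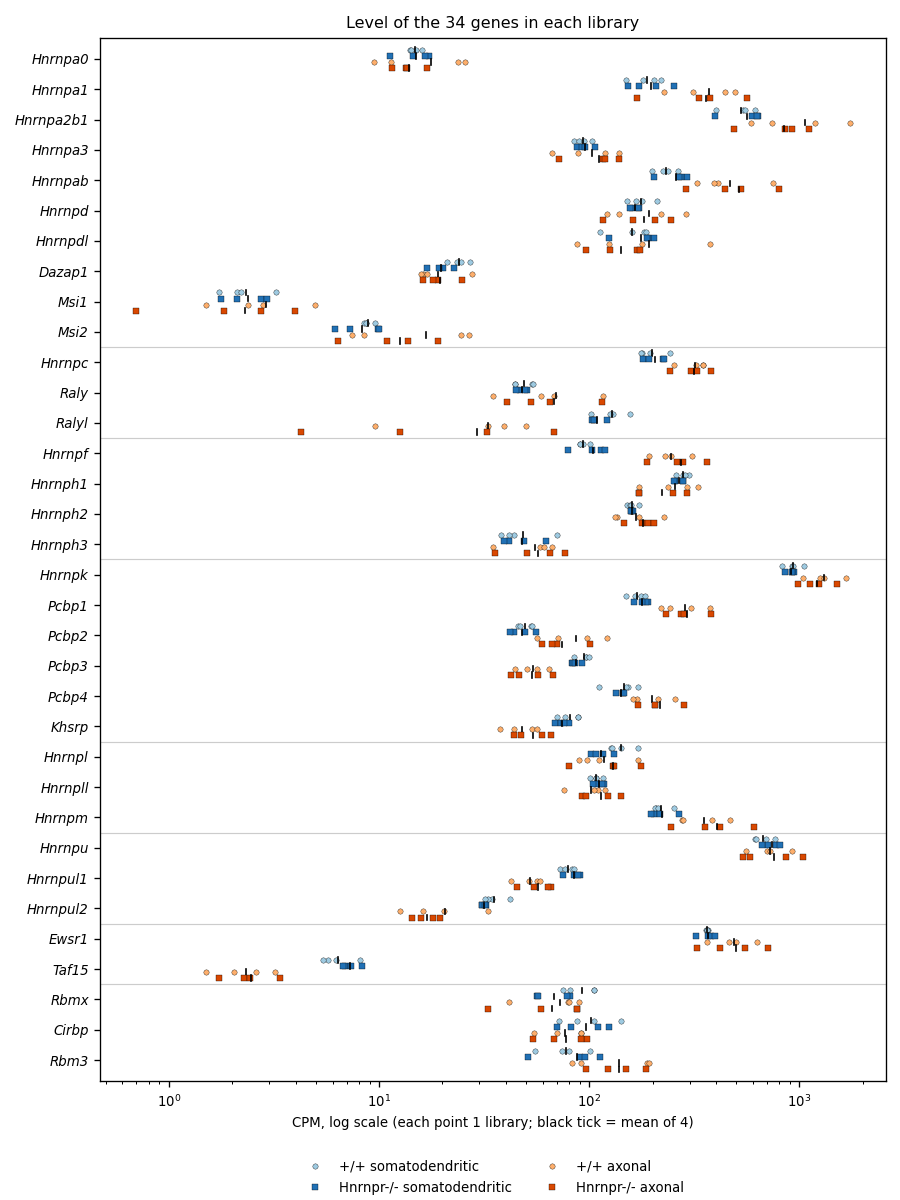
CPM on a log scale for the 34 genes in rows, grouped by protein type between grey lines, with 1 point per library in each of the 4 groups and a black tick at the group mean. *Hnrnpk* has the highest mean in each group, and the axonal libraries are spread more widely than the somatodendritic ones, from 4.23 to 67.8 CPM for *Ralyl* in *Hnrnpr*-/- axons.

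In +/+ motoneurons the comparison of compartments called 11 of 34 members higher in axons (32.4%), where 30.1% of all 19964 genes tested were called higher, and 6 lower (17.6%), where 27.4% were called lower. In *Hnrnpr*-/- motoneurons 9 members were higher (26.5%, against 27.5% of all genes) and 6 lower (17.6%, against 26.8%). The share of higher members was thus close to that of all genes. All 9 increases and all 6 decreases of the *Hnrnpr*-/- comparison were among those of the +/+ comparison, and 17 members were called in neither. The median log2FC of the members was 0.22 in +/+ and 0.18 in *Hnrnpr*-/- motoneurons, beside 0.07 and 0.00 for all genes. Among the members called in +/+, the 5 largest increases were *Hnrnpf*, *Hnrnpab*, *Hnrnpa2b1*, *Hnrnpa1* and *Rbm3*, and the 5 largest decreases were *Ralyl*, *Taf15*, *Pcbp3*, *Hnrnpul2* and *Khsrp*. Both comparisons used a model of all 16 libraries. It did not pair same-numbered libraries and took a shared spread for both compartments, although their common dispersions were 0.0499 (somatodendritic) and 0.275 (axonal). The SEs and p values of the compartment comparisons rest on these choices.

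**Figure D2:**
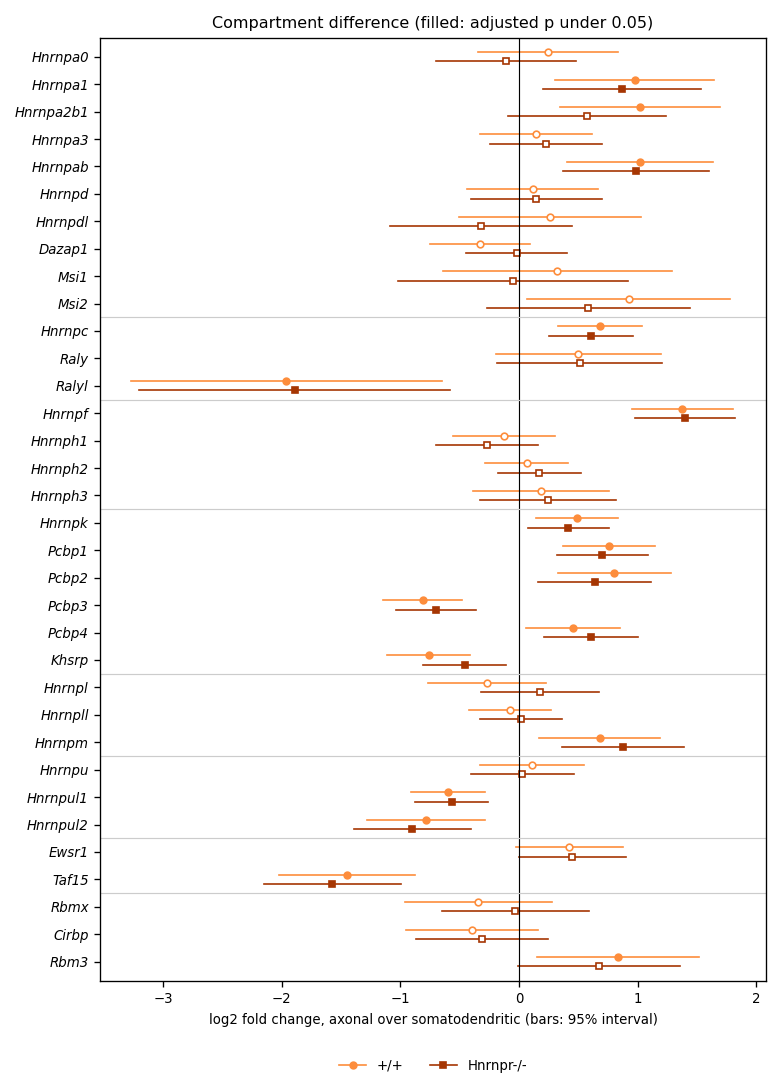
Log2FC of axonal over somatodendritic libraries for the 34 genes in +/+ (circles) and *Hnrnpr*-/- (squares) motoneurons, with 95% intervals as bars and filled symbols for an adjusted p under 0.05. *Hnrnpf* lies furthest to the right at 1.38 and 1.40, *Ralyl* furthest to the left at -1.96 and -1.89, and the intervals of the genotypes overlap for each gene.

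Among the F and H proteins, which bind G-rich RNA and regulate splicing and polyadenylation, *Hnrnpf* alone passed the test. The gene lies on the plus strand at chr6:117877301-117902583 (GRCm39). Its level was 93.6, 90.5, 101 and 90.4 CPM in the +/+ somatodendritic and 246, 193, 307 and 229 CPM in the +/+ axonal libraries. The *Hnrnpr*-/- values were 79.5, 103, 114 and 118 CPM in somatodendritic and 188, 263, 365 and 278 CPM in axonal libraries. Every axonal library lay above every somatodendritic library of either genotype. The log2FC was 1.38 (SE 0.20, adjusted p = 9.6e-05 from edgeR) in +/+ and 1.40 (SE 0.20, adjusted p = 0.00011) in *Hnrnpr*-/- motoneurons. Its paralogs had log2FC values of -0.13 (*Hnrnph1*), 0.07 (*Hnrnph2*) and 0.19 (*Hnrnph3*) in +/+ and -0.27, 0.17 and 0.25 in *Hnrnpr*-/- motoneurons, none past the threshold, and their axonal and somatodendritic libraries overlapped.

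Reads of these genes have to be told apart by fewer bases in the conserved parts of the coding sequence than elsewhere. A stretch of 60 bases is shown because *Hnrnpf* and its paralogs differed in their compartment values. It was picked as the ungapped one with the most bases shared by all 3 genes, so it is not typical. The stretch covers coding positions 145 to 204 of the canonical GENCODE transcripts in GRCm39. It lies at chr11:50270342-50270401 for *Hnrnph1*, chrX:133505801-133505860 for *Hnrnph2* and chr6:117900862-117900921 for *Hnrnpf*, all on the plus strand. Capitals mark the 11 of 60 bases that are not the same in all 3 genes.
Hnrnph1: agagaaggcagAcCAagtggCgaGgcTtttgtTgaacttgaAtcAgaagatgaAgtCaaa
Hnrnph2: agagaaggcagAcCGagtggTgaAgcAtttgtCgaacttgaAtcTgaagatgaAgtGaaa
Hnrnpf: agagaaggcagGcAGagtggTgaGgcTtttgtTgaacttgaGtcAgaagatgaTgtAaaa
*Hnrnph2* and *Hnrnpf* each differed from *Hnrnph1* at 7 of these positions. Across the aligned coding sequences, with gaps counted as differences, *Hnrnpf* was 67.7% identical to *Hnrnph1* and 68.6% to *Hnrnph2*. Over the aligned bases alone the values were 77.3% and 74.5%. The longest run of identical bases was 34 between *Hnrnph1* and *Hnrnph2* and 26 between *Hnrnpf* and either of them.

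Copies elsewhere in the genome were nearer than the paralogs. Reads with several alignments had been divided among their targets, and 10 of the 34 transcripts matched another locus at 98% identity or more over at least 100 bases. For *Hnrnpf*, 40.3% of the transcript was covered by such copies, and the annotated pseudogenes *Gm12435* on chromosome 4 and *Gm6430* on chromosome 1 held counts equal to 33.5% and 35.2% of those on *Hnrnpf*. These shares were steady, between 64.3% and 72.0% for the sum over the 16 libraries. The 4 annotated copies of *Hnrnpa1* held 26.1% to 30.8% of its counts in 15 libraries and 49.6% in +/+ axonal replicate 2, and *Rbm3-ps*, a copy of *Rbm3*, 9.54% to 17.3% in 15 libraries and 47.8% in that same library. *Gm11847* and the other copies of *Hnrnpa3* held 11.2% to 23.4%. Adding the counts of annotated copies that matched over at least 150 bases to their genes left 11 higher and 6 lower members in +/+ and 9 and 6 in *Hnrnpr*-/- motoneurons, which were the same genes. For *Hnrnpk*, 36.9% of the transcript matched a copy with no annotated pseudogene. No counts were added there, so the check does not cover that gene.

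**Figure D3:**
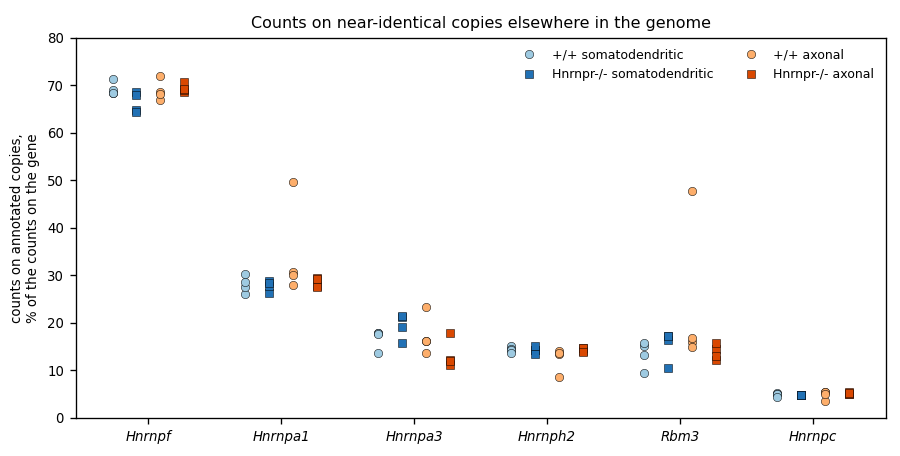
Counts on annotated copies elsewhere in the genome as a percentage of the counts on the gene itself, for the 6 genes with such copies of at least 150 matching bases, with 1 point per library in each group. *Hnrnpf* is steady at 64.3% to 72.0%, and +/+ axonal replicate 2 stands apart at 49.6% for *Hnrnpa1* and 47.8% for *Rbm3*.

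The A/B and D types hold 10 members, most with paired RNA recognition motifs, which act in splice site choice, mRNA trafficking and decay. In +/+ axons 3 of the 10 were higher and none lower, and in *Hnrnpr*-/- axons 2 were higher and none lower, beside 30.1% higher and 27.4% lower of all genes in +/+ and 27.5% and 26.8% in *Hnrnpr*-/- axons. *Hnrnpab*, on the minus strand at chr11:51490927-51497708, had 198, 238, 263 and 224 CPM in +/+ somatodendritic and 409, 393, 746 and 326 CPM in +/+ axonal libraries. In *Hnrnpr*-/- motoneurons it had 204, 293, 274 and 267 CPM in somatodendritic and 288, 528, 801 and 442 CPM in axonal libraries. The compartments did not overlap in +/+ and overlapped by 1 library in *Hnrnpr*-/- motoneurons, with log2FC values of 1.02 (SE 0.29, adjusted p = 0.00761 from edgeR) and 0.99 (SE 0.29, adjusted p = 0.00991).

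*Hnrnpa1*, which encodes the best-known splicing repressor of the family, had 149, 180, 203 and 219 CPM in +/+ somatodendritic and 311, 442, 496 and 227 CPM in +/+ axonal libraries. The values of *Hnrnpr*-/- libraries were 153, 208, 173 and 253 CPM against 169, 375, 560 and 333 CPM. *Hnrnpr*-/- axonal replicate 1 lay within the somatodendritic range, and +/+ axonal replicate 4 lay just above it. The log2FC was 0.97 (SE 0.31, adjusted p = 0.0155 from edgeR) in +/+ and 0.87 (SE 0.31, adjusted p = 0.0289) in *Hnrnpr*-/- motoneurons, and the latter was not called without *Hnrnpr*-/- somatodendritic replicate 1 or 3 or axonal replicate 2 or 3, with adjusted p values of 0.0550 to 0.104.

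*Hnrnpa2b1* had 399, 537, 613 and 551 CPM in +/+ somatodendritic and 742, 1739, 1190 and 590 CPM in +/+ axonal libraries, with 396 to 636 and 487 to 1105 CPM in the *Hnrnpr*-/- groups. The +/+ value of replicate 2 was the highest of all 16 libraries. The log2FC of 1.02 in +/+ (SE 0.31, adjusted p = 0.0124 from edgeR) became 0.67 (adjusted p = 0.0551) without that replicate, and the 0.58 in *Hnrnpr*-/- motoneurons (SE 0.31, adjusted p = 0.132) did not pass. The genotype difference of these values was itself tested and had a log2FC of -0.44 (SE 0.44, unadjusted p = 0.329). The remaining 7 had +/+ log2FC values between -0.33 and 0.93. *Msi2*, whose protein with that of *Msi1* represses translation in neural progenitors, had 0.93 (adjusted p = 0.0603 from edgeR) and *Msi1* 0.33, and *Hnrnpa0*, *Hnrnpa3*, *Hnrnpd* and *Hnrnpdl* had 0.25, 0.15, 0.12 and 0.26. *Dazap1*, which encodes a splicing and translation factor, had -0.33.

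The 6 KH-domain members were each called in both genotypes, with 4 higher and 2 lower in axons, beside 30.1% and 27.4% of all genes in +/+ and 27.5% and 26.8% in *Hnrnpr*-/- motoneurons. *Hnrnpk*, on the minus strand at chr13:58538946-58551157, had 823, 924, 932 and 1050 CPM in +/+ somatodendritic and 1250, 1658, 1306 and 1035 CPM in +/+ axonal libraries. Only +/+ axonal replicate 4 lay within the somatodendritic range. The log2FC was 0.49 (SE 0.16, adjusted p = 0.0172 from edgeR) in +/+ and 0.42 (SE 0.16, adjusted p = 0.04) in *Hnrnpr*-/- motoneurons, and with the replicate number as a block the latter had an adjusted p of 0.0727. Without +/+ axonal replicate 2 the +/+ value was 0.36 (adjusted p = 0.0606). The *Hnrnpr*-/- value was not called without somatodendritic replicate 1, 3 or 4 or axonal replicate 2 or 3, with adjusted p values of 0.0629 to 0.0945, or with no filter on low counts (0.0671).

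*Pcbp1*, an intronless gene on the minus strand at chr6:86501462-86503171, had 165, 176, 185 and 149 CPM in +/+ somatodendritic and 243, 304, 376 and 220 CPM in +/+ axonal libraries. The *Hnrnpr*-/- libraries had 162, 189, 186 and 179 CPM against 231, 274, 378 and 282 CPM. No axonal library overlapped a somatodendritic one, and the log2FC was 0.76 (SE 0.18, adjusted p = 0.0026 from edgeR) in +/+ and 0.70 (SE 0.18, adjusted p = 0.00466) in *Hnrnpr*-/- motoneurons. *Pcbp2* and *Pcbp4*, which encode relatives of Pcbp1, had log2FC values of 0.80 and 0.46 in +/+ and 0.64 and 0.61 in *Hnrnpr*-/- motoneurons. *Pcbp4* in +/+ was not called without somatodendritic replicate 2, 3 or 4 or axonal replicate 1 or 3 (adjusted p = 0.0520 to 0.115 from edgeR), nor with no filter on low counts (0.0741), with DESeq2 under a prior on fold changes and no independent filtering (0.0631) or on the 8 +/+ libraries alone (0.068). Nor was *Pcbp2* in *Hnrnpr*-/- motoneurons without somatodendritic replicate 4 or axonal replicate 3 called (0.0680 and 0.0716). Another close relative moved the other way. *Pcbp3* had 96.3, 96.9, 84.9 and 99.6 CPM in +/+ somatodendritic and 64.1, 50.4, 44.2 and 56.6 CPM in +/+ axonal libraries, and in *Hnrnpr*-/- motoneurons it had 83.0 to 92.4 and 42.2 to 66.9 CPM. The axonal libraries lay below all somatodendritic libraries in both genotypes, with a log2FC of -0.81 (SE 0.16, adjusted p = 0.000664 from edgeR) in +/+ and -0.70 (SE 0.16, adjusted p = 0.00202) in *Hnrnpr*-/- motoneurons.

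*Khsrp*, which encodes a factor that binds AU-rich elements and promotes decay of mRNA, had 88.1, 88.3, 70.1 and 77.0 CPM in +/+ somatodendritic and 53.3, 37.5, 56.5 and 43.7 CPM in +/+ axonal libraries. It was lower in every +/+ axonal library, with a log2FC of -0.76 (SE 0.16, adjusted p = 0.0014 from edgeR). In *Hnrnpr*-/- motoneurons the log2FC was -0.46 (SE 0.16, adjusted p = 0.0279), which the replicate block moved to an adjusted p of 0.0606. It was also not called without somatodendritic replicate 1, 2 or 4 or axonal replicate 1, 3 or 4 of that genotype, with adjusted p values of up to 0.111, nor with library totals (0.109), no filter on low counts (0.0914) or the 8 libraries of that genotype alone (0.0634).

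The C type includes *Hnrnpc*, whose protein binds uridine tracts and shields them from splicing, and its relatives *Raly* and *Ralyl*. *Hnrnpc* was higher in axons, with 176 to 242 CPM in +/+ somatodendritic and 253 to 349 CPM in +/+ axonal libraries and a log2FC of 0.69 (SE 0.17, adjusted p = 0.00295 from edgeR), and 0.61 (SE 0.17, adjusted p = 0.00676) in *Hnrnpr*-/- motoneurons. *Raly* had 0.50 and 0.51 and passed in neither genotype. *Ralyl*, a member with neuron-biased expression at chr3:13535942-14247347, had the lowest log2FC of the 34. Its +/+ somatodendritic libraries had 102, 130, 125 and 156 CPM and its +/+ axonal libraries 39.3, 50.2, 9.58 and 32.8 CPM. The *Hnrnpr*-/- somatodendritic libraries had 106, 122, 103 and 105 CPM and the axonal ones 67.8, 32.7, 4.23 and 12.6 CPM. Every axonal library was below every somatodendritic one, and the SE was the largest of the 34, with a log2FC of -1.96 (SE 0.62, adjusted p = 0.0137 from edgeR) in +/+ and -1.89 (SE 0.61, adjusted p = 0.0174) in *Hnrnpr*-/- motoneurons. Without *Hnrnpr*-/- axonal replicate 4 the latter was -1.64 (adjusted p = 0.0519), and with the dividing-cell covariate *Ralyl* was not called in either genotype. The annotation places 7 other genes within its span.

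*Ewsr1* and *Taf15* encode related proteins that pair an RNA recognition motif with a transcription-activating domain. *Taf15*, on the plus strand at chr11:83363897-83397569, was expressed at a low level and had 207, 127, 130 and 173 counts in +/+ somatodendritic and 60, 96, 98 and 49 counts in +/+ axonal libraries. That is 6.25, 5.72, 5.38 and 8.12 CPM against 1.5 to 3.18 CPM, with no overlap. The *Hnrnpr*-/- libraries had 6.69 to 8.25 CPM against 1.72 to 3.37 CPM. The log2FC was -1.45 (SE 0.27, adjusted p = 0.000508 from edgeR) in +/+ and -1.57 (SE 0.27, adjusted p = 0.000352) in *Hnrnpr*-/- motoneurons. *Ewsr1* had 0.42 (adjusted p = 0.0975) and 0.45 (adjusted p = 0.0825), on the other side of 0 from *Taf15* but not past the threshold.

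The U type proteins bind RNA through an arginine- and glycine-rich region and DNA through a SAP domain, and 2 of the 3 genes were lower in axons of both genotypes, as were 27.4% of all genes in +/+ and 26.8% in *Hnrnpr*-/- axons. *Hnrnpul1* had log2FC values of -0.60 (SE 0.15, adjusted p = 0.00295 from edgeR) in +/+ and -0.57 (SE 0.15, adjusted p = 0.00461) in *Hnrnpr*-/- motoneurons, with no overlap between compartments. *Hnrnpul2* had 34.4, 32.9, 32.0 and 42.0 CPM in +/+ somatodendritic and 12.5, 33.0, 20.4 and 16.2 CPM in +/+ axonal libraries, where only replicate 2 reached the somatodendritic range. Its log2FC was -0.78 (SE 0.23, adjusted p = 0.0103 from edgeR) in +/+ and -0.90 (SE 0.23, adjusted p = 0.00504) in *Hnrnpr*-/- motoneurons. *Hnrnpu*, which encodes a nuclear scaffold protein, had 614 to 762 CPM in +/+ somatodendritic and 556 to 918 CPM in +/+ axonal libraries and a log2FC of 0.11, and did not pass.

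Among the L and M types, *Hnrnpm*, whose protein regulates alternative splicing, was at 205 to 254 CPM in +/+ somatodendritic libraries and at 276 to 468 CPM in +/+ axons, with a log2FC of 0.68 (SE 0.24, adjusted p = 0.0252 from edgeR) and 0.88 (SE 0.24, adjusted p = 0.00699) in *Hnrnpr*-/- motoneurons. The +/+ value was 0.63 (adjusted p = 0.0579) without axonal replicate 1 and 0.56 (adjusted p = 0.0707) without axonal replicate 3. *Hnrnpl*, which encodes a splicing regulator that binds CA repeats, and its paralog *Hnrnpll* had -0.27 and -0.08 in +/+ motoneurons and did not pass. Of the RBMX and cold-inducible members, *Rbm3*, whose protein supports translation at low temperature, had 55.3, 74.5, 79.6 and 101 CPM in +/+ somatodendritic and 82.4, 188, 193 and 90.9 CPM in +/+ axonal libraries. The 2 higher axonal libraries were replicates 2 and 3, and the others lay within the somatodendritic range. Its log2FC was 0.84 (SE 0.32, adjusted p = 0.0366 from edgeR) in +/+, which was not called without somatodendritic replicate 1, 2 or 3 or axonal replicate 2 or 3 (adjusted p = 0.0533 to 0.109) or with limma voom (0.163), and 0.67 (adjusted p = 0.0874) in *Hnrnpr*-/- motoneurons, or 0.69 (adjusted p = 0.0454) with the replicate block. *Cirbp*, its cold-inducible relative, had -0.40, and *Rbmx*, an X-linked splicing factor, -0.34 in +/+ motoneurons, neither past the threshold.

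Markers of dividing cells moved with the compartment as well. The 5 markers *Mki67*, *Top2a*, *Cdk1*, *Ccnb1* and *Birc5* were all higher in axons of both genotypes. Their summed level was 77.9 to 155 CPM in the somatodendritic libraries, and in axons 202 CPM in +/+ replicate 4, 91.1 CPM in *Hnrnpr*-/- replicate 1 and 621 to 1172 CPM in the other 6 libraries. In the 2 axonal libraries with the low sums, *Hnrnpa1* had 227 and 169 CPM against 219 and 153 CPM in the somatodendritic libraries of the same number and genotype. *Hnrnpf* there had 229 and 188 CPM against 90.4 and 79.5 CPM, and *Pcbp3* 56.6 and 66.9 CPM against 99.6 and 92.4 CPM. In +/+ culture 4, 9 of the 11 members called higher had more CPM in the axonal library, with a median log2 ratio of 0.10, whereas in +/+ cultures 1, 2 and 3 all 11 did, with medians of 0.86, 0.98 and 1.14. In *Hnrnpr*-/- culture 1, the one with the lowest sum, all 9 members called higher there had more CPM in the axonal library, with a median log2 ratio of 0.43. The medians were 0.54, 1.02 and 0.49 in cultures 2, 3 and 4, whose axonal sums were 927, 1172 and 681 CPM. Culture 1 had the lowest median of that genotype. These members were chosen as called higher in the same libraries, so the medians are a description.

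With the log2 of the dividing-cell sum as a covariate, an alternative chosen after the data were seen, 1 member, *Hnrnpf*, was called higher in axons of each genotype, where 16.8% (+/+) and 16.4% (*Hnrnpr*-/-) of all genes were called higher in that same fit. Its log2FC was 0.93 (adjusted p = 0.0054 from edgeR) in +/+ and 0.96 (adjusted p = 0.0037) in *Hnrnpr*-/- motoneurons. Under the covariate 6 members were lower in +/+ and 7 in *Hnrnpr*-/- axons, of which 4 in each were among the 6 called without it, against 11.9% and 11.4% of all genes. *Taf15*, *Khsrp* and *Hnrnpul1* were lower under both settings and in both genotypes, whereas *Ralyl* was not called with the covariate, at -0.70 (adjusted p = 0.477 from edgeR) in +/+ and -1.08 (0.240) in *Hnrnpr*-/- motoneurons. *Hnrnpul2* was not called in +/+ at -0.90 (adjusted p = 0.0566), further from 0 than without the covariate, and *Pcbp3* not in *Hnrnpr*-/- motoneurons at -0.46 (0.0695). Every axonal library but *Hnrnpr*-/- replicate 1 had a higher sum than every somatodendritic library, so the covariate and the compartment were told apart by few libraries.

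**Figure D4:**
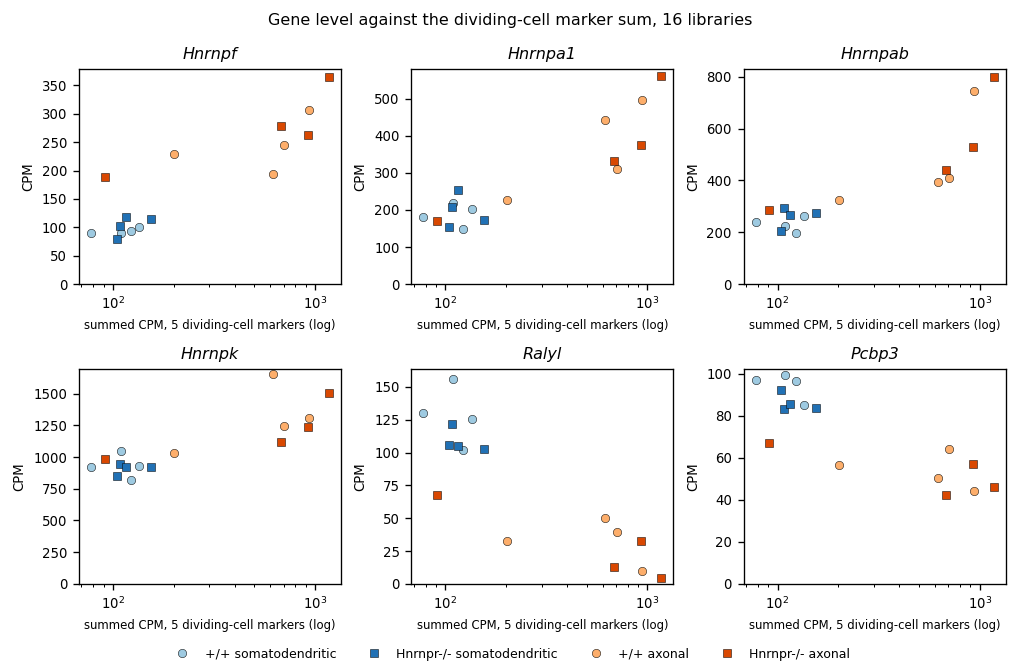
CPM of 6 members against the summed CPM of the 5 dividing-cell markers (log axis) in the 16 libraries, coloured by group. +/+ axonal replicate 4 (202) and *Hnrnpr*-/- axonal replicate 1 (91.1) lie to the left of the other axonal libraries, and there *Hnrnpf* stays above and *Ralyl* and *Pcbp3* below the somatodendritic libraries, whereas *Hnrnpa1* and *Hnrnpk* lie within the range of the somatodendritic libraries pooled over both genotypes.

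Markers of other cell types were also found in the axonal libraries. In +/+ and *Hnrnpr*-/- motoneurons, 5 and 3 of 7 astrocyte or radial glia markers were higher in axons, with sums of 918 to 2040 CPM in somatodendritic and 1940 to 4813 CPM in axonal libraries. Of 8 fibroblast or meningeal markers, 3 and 2 were higher (102 to 1344 against 261 to 3532 CPM). Of 7 endothelial or mural markers, 3 were higher in each genotype (28.4 to 390 against 1028 to 9885 CPM) and 1 was lower in +/+ and 2 in *Hnrnpr*-/- axons, while *Cdh5* had at most 3 counts in every axonal library. Oligodendroglia or Schwann cell markers had 1 of 9 higher in each genotype and microglia markers 0 of 7. Of 7 nuclear RNAs, 3 were higher and 3 lower in +/+ axons, and 1 higher and 3 lower in *Hnrnpr*-/- axons. Their sum was 647 to 2747 CPM in axons, the highest value being that of +/+ replicate 2. Whether cells of these types were present was not tested. The part of such cells and of the nuclear RNAs in the values of the 34 genes was not tested beyond the dividing-cell covariate.

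The question of compensation was addressed within each compartment, with a model of its 8 libraries. In the somatodendritic compartment 0 of 34 members had an adjusted p under 0.05 for the genotype in edgeR, and 0.00557% of all 17961 genes did, which is *Hnrnpr* alone. At an unadjusted p of 0.05, 2 of 34 passed, against 2.62% of all genes, and both were lower in *Hnrnpr*-/- motoneurons. The count over all genes moved with 1 library, with 302 genes higher and 169 lower in the full set but 1068 higher and 1223 lower of 18263 without *Hnrnpr*-/- somatodendritic replicate 1, where 2 of 34 members passed. With limma voom it was 601 and 911 of 17961, with 3 of 34 members. Counts of members by DESeq2 were likewise 0 at an adjusted and 2 at an unadjusted p of 0.05. With its default settings 1 gene was higher and 1 lower of all 31719 after adjustment, and 475 and 208 before it. The median log2FC was 0.01, beside 0.01 for all genes, with 19 members above and 15 below 0. The 95% intervals had a median half-width of 0.28 on the log2 scale, and for 30 of 34 members they lay within 1.5-fold of no difference in either direction.

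*Rbmx* had 75.0, 106, 106 and 81.3 CPM in +/+ and 56.3, 81.2, 77.9 and 57.0 CPM in *Hnrnpr*-/- somatodendritic libraries. The ranges overlapped, and the log2FC was -0.43 (95% interval -0.79 to -0.06, unadjusted p = 0.0266 and adjusted p = 0.999 from edgeR). *Hnrnpl* had 126, 141, 128 and 171 CPM in +/+ and 102, 116, 107 and 132 CPM in *Hnrnpr*-/- somatodendritic libraries, with overlap of 1 library of the knockout, and a log2FC of -0.30 (95% interval -0.58 to -0.02, unadjusted p = 0.0396 and adjusted p = 0.999). Exact two-sided permutation tests gave p = 0.114 for *Rbmx* and p = 0.0857 for *Hnrnpl*, where 0.0286 is the smallest p that 4 against 4 libraries allow. In axons their log2FC values were -0.13 and 0.14. With each library left out in turn, the unadjusted p ranged from 0.0135 to 0.0828 for *Rbmx* and from 0.0176 to 0.121 for *Hnrnpl*.

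In axons, 0 of 34 members differed between genotypes at an adjusted p of 0.05 in edgeR, where 0.00528% of all 18957 genes did, again *Hnrnpr* alone. At an unadjusted p of 0.05 also 0 of 34 passed, against 0.723% of all genes. If no gene differed, a share near 0.05 would be expected, so the test may be conservative in axons. DESeq2 likewise gave 0 members at either threshold. With its default settings 0 genes were higher and 1 lower of all 31223 after adjustment, and 158 and 263 before it. The median log2FC was 0.00, with 18 members above and 16 below 0. The values ran from -0.46 for *Hnrnpdl* (95% interval -1.46 to 0.55) to 0.20 for *Hnrnpm* (-0.50 to 0.91). The median half-width was 0.67, and 26 of 34 intervals lay within 2-fold and 5 within 1.5-fold of no difference, so for the other members a difference of that size was not excluded. The widest interval was that of *Ralyl*, from -1.94 to 1.55. The difference between the genotype effects in the compartments was tested too, and 0 of 34 members passed at an adjusted p of 0.05 in edgeR, as for all genes (0%), or at an unadjusted p of 0.05 (1.33% of all genes). In DESeq2 the counts of members were also 0. With its default settings 1 gene of all 34044 was higher at the adjusted threshold, and 195 were higher and 326 lower at the unadjusted one.

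**Figure D5:**
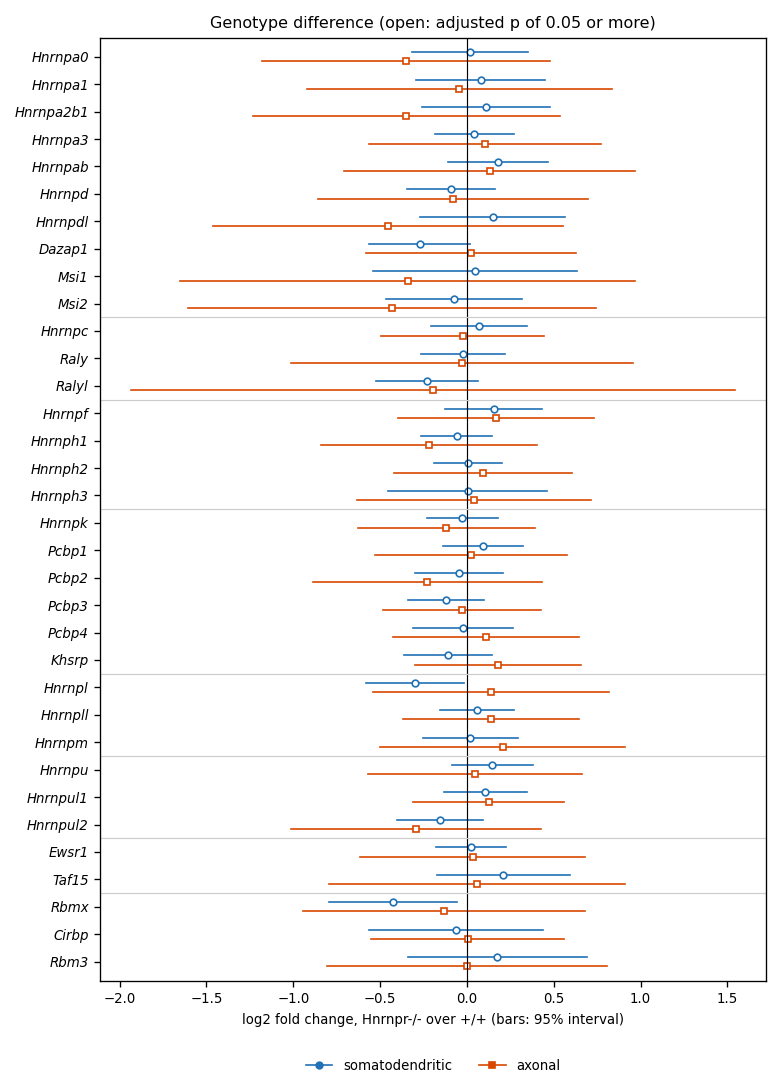
Log2FC of *Hnrnpr*-/- over +/+ libraries for the 34 genes in the somatodendritic (circles) and axonal (squares) compartment, with 95% intervals as bars and open symbols throughout, as no adjusted p was under 0.05. The intervals of *Rbmx* and *Hnrnpl* in the somatodendritic compartment end below 0, all others include 0, and axonal intervals are wider (median half-width 0.67 against 0.28).

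The 34 genes are not the whole family, and 17 further genes served as a background list, namely *Hnrnpr*, *Syncrip*, *Ptbp1*, *Ptbp2*, *Ptbp3*, *Tardbp*, *Rbmxl1*, *Fubp1*, *Fubp3*, *Matr3*, *Sfpq*, *Nono*, *Pspc1*, *Tia1*, *Tial1*, *Celf1* and *Celf2*. In +/+ axons 7 of the 17 were higher and 4 lower, and in *Hnrnpr*-/- axons 5 were higher and 4 lower, where 30.1% and 27.4% of all genes in +/+ and 27.5% and 26.8% in *Hnrnpr*-/- motoneurons were. Apart from *Hnrnpr*, 0 of 16 differed between genotypes at an adjusted p of 0.05 in either compartment. *Syncrip*, the nearest relative of *Hnrnpr*, had 67.7 to 92.8 CPM in +/+ and 106 to 137 CPM in *Hnrnpr*-/- somatodendritic libraries, a log2FC of 0.57 (SE 0.13, unadjusted p = 0.00122 and adjusted p = 0.999 from edgeR). In axons it had 75.6 to 170 CPM in +/+ and 84.5 to 138 CPM in *Hnrnpr*-/- libraries, with a log2FC of -0.03 (SE 0.28, unadjusted p = 0.906 from edgeR). The difference between these effects had an unadjusted p of 0.075.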

How the data were processed

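RNA of the somatodendritic and axonal compartments was sequenced in 16 libraries, grouped and numbered by their titles. The deposited values are expected counts made by the authors with featureCounts 1.6.4 after alignment with STAR 2.7.2b to GRCm39, in which a read with several alignments or overlapping genes was split into fractions. They hold no normalization. The authors counted reads as reversely stranded, whereas the library kit does not mark strand, so reads of a gene and of an antisense or overlapping partner cannot be told apart, and 18 of the 34 genes overlap another annotated gene, *Hnrnpf*, *Hnrnpab*, *Hnrnpa2b1*, *Hnrnpk* and *Ralyl* among them. Of the 34, 33 have a fractional count in at least 1 library.

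Counts were rounded, filtered by expression per group, scaled by TMM and tested two-sided with the quasi-likelihood test of edgeR 4.0.16 (R 4.3.3), with p values adjusted by Benjamini-Hochberg across the genes that passed the filter and a threshold of 0.05. Compartments and the difference of genotype effects were fitted on 16 libraries, and genotypes on the 8 libraries of a compartment. SEs were derived as the absolute log2FC over the square root of the F statistic. Intervals are at 95% and were built from that SE and the t distribution. Exact permutation tests used log2(CPM + 0.5). Copies of transcripts were searched with BLAST+ 2.17.0. The script was tested on simulated data.

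Alternatives were RLE factors, library totals, other filters, unrounded counts, DESeq2 1.42.0, limma 3.58.1 voom with quality weights, other sets of libraries, a replicate block and each library left out. Added counts of copies and a dividing-cell covariate were chosen after the data were seen. Deviations from group means of same-numbered somatodendritic and axonal libraries correlated at 0.105 to 0.508 across genes in all 8 pairs, so numbers were taken to pair compartments, whereas between genotypes the correlations were -0.05 to 0.677 and numbers were not taken as pairs.

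Genes given in full were, by rule, those with the 5 largest called increases and decreases in +/+ axons, the 3 highest per exon length in a compartment and any with an unadjusted p under 0.05 between genotypes. All 34 are named. A further gene had been on the background list and is not reported here. The choice to name *Syncrip* came after its values had been seen, and so did that of *Pcbp2*, *Pcbp4*, *Hnrnpc*, *Hnrnpm* and *Hnrnpul1* with values. The 34 genes, the lists and the tests were chosen with earlier results of these data known. Total counts per library were 22024923 to 34864151, and as PCR copies carried no molecular identifiers, this depth bounds counting error only.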

Additional observations from a re-analysis of the deposited data

Results flagged for a closer look

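Of 136 groups of 4 libraries, 34 genes in 4 groups, 5 had a library whose gap to the nearest other exceeded the 95% critical share of the group's range in Dixon's test. Chance flags about 1 in 20 such groups. *Dazap1* stood at 27.6 CPM in +/+ axonal replicate 3, where the other 3 libraries had 15.8 to 16.9 CPM. *Ralyl* stood at 122 CPM in *Hnrnpr*-/- somatodendritic replicate 2, beside 103 to 106 CPM. *Pcbp4* was low at 134 CPM in *Hnrnpr*-/- somatodendritic replicate 1, beside 144 to 146 CPM. *Hnrnpm* was high at 254 CPM in +/+ somatodendritic replicate 4, beside 205 to 212 CPM, and *Msi2* at 9.52 CPM in +/+ somatodendritic replicate 3, beside 8.46 to 8.64 CPM. The 5 values fell in 5 different libraries, and no member's genotype effect differed between compartments at an adjusted p of 0.05.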

How the results depend on the processing

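None of the 34 genes was called between genotypes, or for the difference of genotype effects, in any alternative. Each library left out in turn gave 8 to 14 of the 34 genes called higher and 6 to 7 called lower in +/+ axons, and 6 to 11 and 4 to 6 in *Hnrnpr*-/- axons. Of all 20296 to 20503 genes, these fits called 5518 to 6212 higher and 4616 to 5804 lower in +/+ axons. In *Hnrnpr*-/- axons they called 4951 to 5684 higher and 4270 to 5925 lower of 20312 to 20495. Leaving out each library gave medians of the 34 of 0.015 to 0.42 and 0.071 to 0.32 on the log2 scale. It gave 0 to 3 of the 34 under an unadjusted p of 0.05 between genotypes in the somatodendritic compartment and 0 to 2 for the difference of genotype effects. Of all 18147 to 18349 genes, 148 to 1068 were higher and 109 to 1223 lower between genotypes. For the difference of effects, 68 to 270 were higher and 123 to 433 lower of 20296 to 20503. The dividing-cell covariate left 1 gene higher in each genotype's axons, medians of -0.40 in +/+ and -0.35 in *Hnrnpr*-/- motoneurons, and 1 gene unadjusted in the somatodendritic compartment. That last count was 1 with library totals and 0 with all 16 libraries in 1 fit. Of all 17961 genes, 206 were higher and 144 lower unadjusted with the covariate, and 291 and 145 with library totals. With all 16 libraries 70 and 50 were, of 19964. With limma voom the +/+ median was 0.0078, and 1 of the 34 passed unadjusted for the difference of effects, where 165 were higher and 142 lower of all 19964 genes. Library totals moved the median of all genes in +/+ axons from 0.07 to 0.22. Pairing compartments by a replicate block gave 11 higher and 6 lower of the 34 in +/+ axons, against 9 and 5 for *Hnrnpr*-/- motoneurons. Of all 19964 genes, it called 5594 higher and 5652 lower in +/+ and 5289 and 5568 in *Hnrnpr*-/- axons. A block on the number between genotypes, where numbers were not taken as pairs, gave 3 of the 34 unadjusted in the somatodendritic compartment. Of all 17961 genes, 365 were higher and 183 lower in that fit. The block of compartments moved *Hnrnpk* (adjusted p = 0.0727) and *Khsrp* (0.0606) above the threshold and *Rbm3* (0.0454) below it in *Hnrnpr*-/- motoneurons, all in edgeR. Genes called in addition were *Ewsr1* with library totals and limma voom in both genotypes and with the stricter filter in *Hnrnpr*-/- axons, *Msi2* in +/+ axons with library totals, the stricter filter and DESeq2, *Dazap1* in +/+ axons with limma voom, and *Rbm3* in *Hnrnpr*-/- axons in the fit of 8 libraries. The covariate added *Hnrnpl* and *Rbmx* as lower in +/+ axons and *Hnrnph1*, *Msi1* and *Rbmx* in *Hnrnpr*-/- axons. Leaving out 1 axonal library added *Msi2* (+/+ replicate 1), *Dazap1* (+/+ replicate 3), *Ewsr1*, *Msi2* and *Raly* (+/+ replicate 4), and *Ewsr1* and *Hnrnpa2b1* (*Hnrnpr*-/- replicate 1).

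Log2FCs between compartments changed sign as follows. The covariate gave, in +/+, *Hnrnpa0* -0.20, *Hnrnpa1* -0.0056, *Hnrnpa3* -0.47, *Hnrnpd* -0.53, *Hnrnpdl* -0.42, *Hnrnph2* -0.045, *Hnrnph3* -0.50, *Hnrnpu* -0.38, *Raly* -0.46, *Ewsr1* -0.20, *Cirbp* 0.019, *Msi1* -1.18 and *Msi2* -0.18. In *Hnrnpr*-/- it gave *Hnrnpa1* -0.10, *Hnrnpa2b1* -0.17, *Hnrnpa3* -0.35, *Hnrnpd* -0.46, *Hnrnph3* -0.41, *Hnrnpl* -0.42, *Hnrnpll* -0.33, *Hnrnpu* -0.44, *Raly* -0.36, *Ewsr1* -0.14, *Cirbp* 0.061 and *Msi2* -0.43. With limma voom, *Hnrnpa0*, *Hnrnpa3*, *Hnrnpd* and *Hnrnpdl* were at -0.29, -0.036, -0.18 and -0.28 in +/+, and *Hnrnpll* and *Hnrnpu* at -0.012 and -0.036 in *Hnrnpr*-/- motoneurons. Library totals gave *Hnrnph1* 0.024 and *Hnrnpll* 0.076 in +/+, and *Hnrnpa0* 0.0025, *Rbmx* 0.093, *Msi1* 0.066 and *Dazap1* 0.10 in *Hnrnpr*-/- motoneurons. There, *Rbmx* and *Dazap1* were also at 0.0059 and 0.013 with no filter, *Rbmx*, *Msi1* and *Dazap1* at 0.024, 0.0070 and 0.035 under the filter that asked for 10 counts in each library of 1 group and at 0.029, 0.013 and 0.040 with only the 8 libraries of the genotype, and *Hnrnpll* and *Hnrnpu* at -0.0029 and -0.021 with the replicate block. With 1 library left out, sign changes fell within -0.038 to 0.35 for *Hnrnpa3*, -0.15 to 0.33 for *Hnrnpd*, -0.31 to 0.54 for *Hnrnpdl*, -0.27 to 0.068 for *Hnrnph1*, -0.12 to 0.21 for *Hnrnph2*, -0.12 to 0.088 for *Hnrnpll*, -0.029 to 0.26 for *Hnrnpu* and -0.011 to 0.59 for *Msi1* in +/+. For the *Hnrnpr*-/- comparison they fell within -0.17 to 0.0028 for *Hnrnpa0*, -0.069 to 0.10 for *Hnrnpll*, -0.12 to 0.15 for *Hnrnpu*, -0.19 to 0.19 for *Rbmx*, -0.40 to 0.25 for *Msi1* and -0.12 to 0.086 for *Dazap1*. The cause of these changes was not tested.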

Other observations

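Ratios between paralogs within a library do not depend on how libraries are scaled, and they were set side by side after the values were seen, as a description with no test. Per kilobase of exon, *Hnrnpf* stood at 0.204 to 0.231 of *Hnrnph1* in +/+ somatodendritic libraries and at 0.377 to 0.857 in +/+ axons, and at 0.182 to 0.30 and 0.672 to 1.03 in the *Hnrnpr*-/- compartments. These ratios leave out the counts on the copies of *Hnrnpf*, equal to 64.3% to 72.0% of its own, so its level relative to *Hnrnph1* may be understated. *Pcbp1* was 3.57 to 5.20 times *Pcbp3* in +/+ somatodendritic libraries and 9.06 to 20.3 times in +/+ axons. The *Hnrnpr*-/- ratios were 4.19 to 5.44 and 8.24 to 19.5. *Ewsr1* was 50.1 to 74.9 times *Taf15* in +/+ somatodendritic libraries and 214 to 271 times in +/+ axons, against 51.1 to 66.3 and 107 to 326 in *Hnrnpr*-/- motoneurons. For these 3 pairs the axonal and somatodendritic ranges did not overlap in either genotype.

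*Raly* stood at 0.362 to 0.673 of *Ralyl* in +/+ somatodendritic libraries and at 1.35 to 15.5 in +/+ axons. Across *Hnrnpr*-/- axons it ran from 0.762 in replicate 1 to 34.8 in replicate 3, the axonal libraries of that genotype with the lowest and the highest sum of dividing-cell markers. *Rbm3* over *Cirbp*, the cold-inducible pair, was 0.422 to 0.547 in +/+ somatodendritic libraries and 0.593 to 2.11 in +/+ axons, but 0.431 to 0.662 and 0.588 to 2.07 in *Hnrnpr*-/- libraries, where *Hnrnpr*-/- axonal replicate 1 lay within the somatodendritic range. *Hnrnpm* was 3.07 to 3.51 times *Hnrnpl* in +/+ and 3.86 to 4.29 times in *Hnrnpr*-/- somatodendritic libraries, without overlap. In axons the genotypes overlapped, at 5.24 to 8.31 and 5.75 to 7.27. For the other pairs given, the genotypes overlapped in both compartments.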
